A study of Canis lupus familiaris with 4 samples.

Results

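Genes of the cellular response to low oxygen were followed in canine mammary ductal carcinoma and in the adjacent non-tumor mammary tissue. These 10 hypoxia response genes, HIF1A, CA9, CA12, VEGFA, SLC2A1, NDRG1, EGLN3, BNIP3, P4HA1 and PFKFB4, were taken by gene symbol from tables of 11277 genes, and all 10 are in the tables. Total RNA was sequenced in 4 libraries, the carcinoma libraries T1 and T2 and the non-tumor libraries C1 and C2. Each library is a pool of 3 animals. The 6 donors were female dogs of different breeds, not neutered, aged 5 to 14 years, with naturally occurring early-stage tumors removed by mastectomy, and both tissues came from these animals. By the study's account C1 and T1 form one set of dogs (pool 1) and C2 and T2 the other (pool 2). Each tissue thus has 2 pools, and p-values do not measure the spread between single dogs.

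Cells sense oxygen through hypoxia-inducible factors, each made of an oxygen-labile alpha subunit (HIF1A or EPAS1) and the stable partner ARNT. When oxygen is present, prolyl hydroxylases of the EGLN family mark the alpha subunit, which the VHL ubiquitin ligase then removes, and when oxygen is low the factor persists and switches on genes for glucose uptake, glycolysis, acid export, vessel growth, collagen modification and the removal of mitochondria. Solid tumors, those of the human breast included, are known for regions of this kind, and CA9 and SLC2A1 are used as tissue markers of them. The control of HIF1A acts largely on the protein, which transcript counts do not measure.

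Levels are given as CPM, the counts of a gene divided by the total of its library after TMM scaling and set to a common total. The totals were 3236218 to 35496260 counts, with pool 1 about an order of magnitude deeper than pool 2, so that 1 count was worth 0.0286 CPM in T1, 0.297 in T2, 0.0339 in C1 and 0.232 in C2. Carcinoma was set over non-tumor tissue in edgeR's quasi-likelihood test, with Benjamini-Hochberg adjustment across the whole table. This test takes the spread of a gene partly from its pools and partly from the spread shared across genes. It treats the 4 libraries as independent, although same-numbered pools share their dogs. A gene was called higher or lower where its adjusted p was under 0.05 and its log2 fold change reached 1 or −1. The standard error (SE) was obtained from the log2 fold change and the F statistic. CPM is not scaled by gene length, so levels are compared between tissues and not between genes.

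Of the 10 hypoxia response genes, 7 were higher in carcinoma, 0 were lower and 3 did not pass. The 7 were CA9, CA12, BNIP3, VEGFA, SLC2A1, PFKFB4 and HIF1A, in descending order of log2 fold change, and the 3 that did not pass were EGLN3, P4HA1 and NDRG1. Over all genes, 4.61% were called higher and 5.23% lower. The count of 0 lower members was also 0 at an unadjusted p under 0.05 and in DESeq2, whereas 10 members were higher at an unadjusted p under 0.05. At that unadjusted threshold 14.6% of all genes were higher and 13.9% lower. DESeq2 called 7 members higher and, of all 11277 genes, 573 higher and 633 lower. The median log2 fold change of the members was 1.39, against 0.03 for all genes. All 10 had both carcinoma libraries above both non-tumor libraries, a pattern seen in 29.6% of all genes. The members had been proposed with results of these data known, so these shares describe them and do not test them. Summed over the 10 genes, the level was 1214 CPM in T1 and 1264 CPM in T2, against 555 CPM in C1 and 533 CPM in C2. HIF1A alone made up 575 CPM in T1 and 476 CPM in T2, against 274 CPM in C1 and 197 CPM in C2. The sum thus weighs the genes unevenly.

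**Figure D1:**
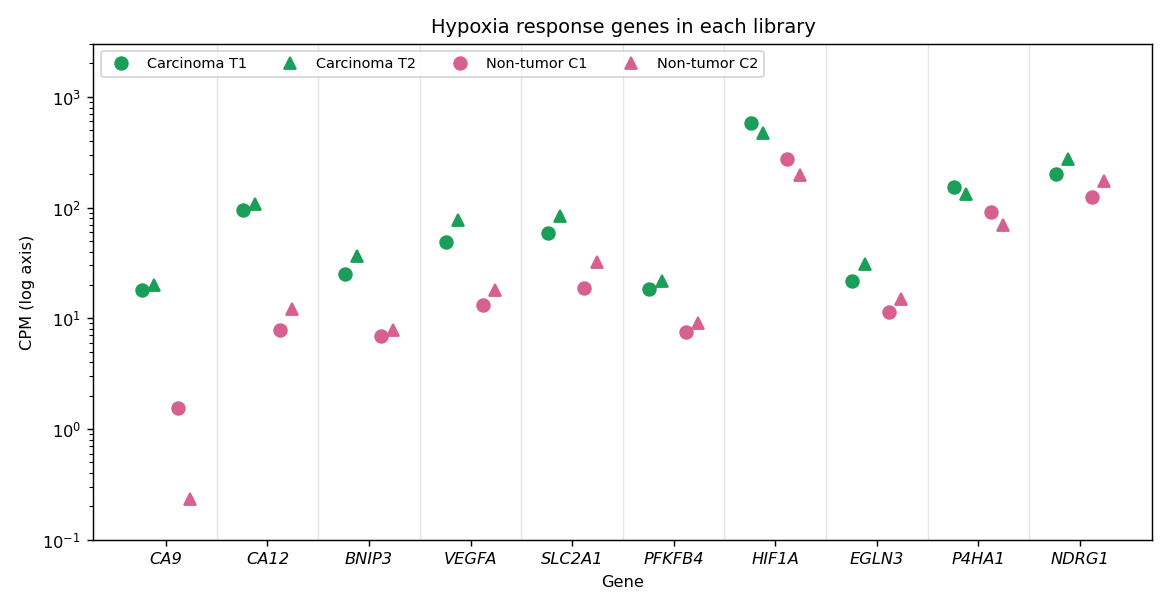
CPM (log axis) of the 10 hypoxia response genes in each library, ordered by log2 fold change, with carcinoma in green and non-tumor tissue in pink, circles for pool 1 and triangles for pool 2. For every gene both green symbols lie above both pink ones, and the lowest symbol, CA9 in C2 at 0.232 CPM, stands for 1 count.

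The number of calls was lowest without the non-tumor library C1, the deeper of the non-tumor pair, among the members and among all genes. Without C1, 3 members were called higher, namely HIF1A, CA9 and CA12, and 3.03% of all genes. Without T1 there were 5 members and 4.52% of all genes, without T2 6 members and 4.19%, and without C2 5 members and 4.41%. With the pool number added as a replicate block, 7 members were called, when 6.95% of all genes were called higher. Without the fold threshold, at an adjusted p under 0.05 alone, 8 members passed as higher, among 6.93% of all genes, the added one being P4HA1.

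HIF1A, the oxygen-regulated subunit of the factor itself, was higher in carcinoma, at 525 ± 69.6 CPM, than in non-tumor tissue, at 235 ± 54.5 CPM (SD, n = 2 pools each). Its level was 575 CPM in T1 and 476 CPM in T2, against 274 CPM in C1 and 197 CPM in C2. The tissues do not overlap, and within each tissue pool 2 was the lower. The log2 fold change was 1.16 (SE 0.20, edgeR adjusted p = 0.0238). The change lies near the fold threshold, and the call was lost without T1 (log2 fold change 0.97, adjusted p = 0.0503) and without C2 (0.94, adjusted p = 0.0343). EGLN3 belongs to the hydroxylase family and is itself induced by the factor. Its level was 21.8 CPM in T1 and 31.2 CPM in T2, against 11.4 CPM in C1 and 14.8 CPM in C2. Both carcinoma libraries lay above both non-tumor libraries, but the log2 fold change of 1.01 did not pass (SE 0.28, edgeR adjusted p = 0.0855).

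The other genes of the oxygen sensor showed no call. Of 17 listed genes of HIF subunits, hydroxylases and their partners, 12 were measured, and 0 were called in either direction by edgeR. DESeq2 also called 0, and at an unadjusted p under 0.05 there was 1 higher and 0 lower. Over all genes edgeR called 4.61% higher and 5.23% lower, and 14.6% were higher and 13.9% lower at the unadjusted p. Counts this small in 12 genes thus do not set the list apart. The median log2 fold change of the 12 was 0.00, against 0.03 for all genes. HIF3A, VHL, RBX1, CITED2 and SIAH2 were not analysed here.

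EPAS1, which encodes the second alpha subunit, was 52.5 CPM in T1 and 59.8 CPM in T2, against 49.9 CPM in C1 and 59.6 CPM in C2. Its log2 fold change was 0.04 (SE 0.16, edgeR adjusted p = 0.90). EGLN1, the main hydroxylase of HIF1A in most cells, had one of −0.29 (SE 0.14, adjusted p = 0.245) and EGLN2 one of 0.37 (SE 0.50, adjusted p = 0.665). The member of this list with the smallest adjusted p was EP300, a coactivator that HIF1A recruits, at a log2 fold change of 0.36 (SE 0.12, edgeR adjusted p = 0.114). Its fellow coactivator CREBBP stood at 0.25 (SE 0.11, adjusted p = 0.225) and ARNT2, a relative of ARNT, at 0.30 (SE 0.24, adjusted p = 0.464).

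CA9 and CA12, which encode carbonic anhydrases of the cell surface with the active site outside the cell, had the largest log2 fold changes of the 10 genes. CA9 averaged 18.9 ± 1.44 CPM in carcinoma and 0.895 ± 0.938 CPM in non-tumor tissue (SD, n = 2 pools each). It was 17.9 CPM in T1 and 19.9 CPM in T2, against 1.56 CPM in C1 and 0.232 CPM in C2. In counts these levels were 625 and 67 in T1 and T2, against 46 in C1 and 1 in C2, so its level in C2 lies below the 0.695 CPM that 3 counts amount to there. The log2 fold change was 3.90 (SE 0.58, edgeR adjusted p = 0.0144), rank 32 of all genes in descending order. With C2 left out it was 3.52 (adjusted p = 0.00599), and with C1 left out 5.64 (adjusted p = 0.00878). CA12 averaged 102 ± 8.28 CPM in carcinoma and 9.92 ± 3.02 CPM in non-tumor tissue (SD, n = 2 pools each). It was 95.9 CPM in T1 and 108 CPM in T2, against 7.79 CPM in C1 and 12.1 CPM in C2, with little spread within either tissue beside the distance between them. Its log2 fold change was 3.42 (SE 0.25, edgeR adjusted p = 0.00263), rank 54 of all genes. CA9 and CA12 were called in each alternative that could be run for them.

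The other genes of acid and bicarbonate handling went in both directions. Of 13 listed genes, 10 were measured, of which 1 was higher (CA2), 1 was lower (CA3) and 8 did not pass, with a median log2 fold change of 0.72. Over all genes 4.61% were called higher and 5.23% lower, so calls this few do not set the list apart. CA2, a cytosolic carbonic anhydrase, was 9.24 CPM in T1 and 11.0 CPM in T2, against 2.37 CPM in C1 and 2.32 CPM in C2, a log2 fold change of 2.04 (SE 0.29, edgeR adjusted p = 0.0132). The call of CA2 was lost without C1 (adjusted p = 0.0899) and without C2 (adjusted p = 0.0504).

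CA3, the carbonic anhydrase of skeletal muscle and fat, was 1.75 CPM in T1 and 1.49 CPM in T2, against 43.1 CPM in C1 and 48.9 CPM in C2, a log2 fold change of −4.68 (SE 0.24, edgeR adjusted p = 0.00182). Striated muscle markers moved with it. All 8 were measured and called lower, their summed level was 21.6 and 27.1 CPM in carcinoma, against 1899 and 3047 CPM in non-tumor tissue, and MYL3 had no count in either carcinoma library. Of 6 fat cell markers 1 was measured, LPL, at 35.1 and 38.7 CPM in carcinoma, against 39.6 and 48.2 CPM in non-tumor tissue. The part of these cells in the result for CA3 was not tested. In bulk tissue, fewer cells of a type and less RNA per cell cannot be told apart. The sodium bicarbonate cotransporters SLC4A4 (log2 fold change −0.89, SE 0.15, edgeR adjusted p = 0.0228) and SLC4A7 (−0.71, SE 0.13, adjusted p = 0.0295) passed on p but not on fold. With the replicate block 4 genes of the list were called higher and 1 lower, but that fit also called 6.95% of all genes higher and 763 lower.

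SLC2A1, the glucose transporter GLUT1, and PFKFB4, which sets the level of the glycolytic activator fructose 2,6-bisphosphate, were higher in carcinoma. SLC2A1 was 58.5 CPM in T1 and 83.6 CPM in T2, against 18.6 CPM in C1 and 32.0 CPM in C2, a log2 fold change of 1.51 (SE 0.33, edgeR adjusted p = 0.0440). PFKFB4 was 18.4 CPM in T1 and 21.7 CPM in T2, against 7.45 CPM in C1 and 9.04 CPM in C2, a log2 fold change of 1.28 (SE 0.25, edgeR adjusted p = 0.0329). The means were 71.0 ± 17.7 CPM in carcinoma and 25.3 ± 9.47 CPM in non-tumor tissue for SLC2A1, and 20.0 ± 2.36 CPM in carcinoma and 8.25 ± 1.12 CPM in non-tumor tissue for PFKFB4 (SD, n = 2 pools each). In both genes pool 2 was the higher within each tissue and the tissues do not overlap.

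Of the 7 calls these were lost under the most alternatives. That of SLC2A1 was lost without C1 (adjusted p = 0.108), on plain library totals (0.0904) and where every library had to hold 10 counts (0.0509). That of PFKFB4 was lost on plain library totals (0.0638) and without any 1 of the 4 libraries (0.0719 to 0.221).

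Of 24 listed genes 13 were measured, and all 13 had a positive log2 fold change, with a median of 0.93, of which 2 were called higher (ALDOC and HK1) and 0 lower. Over all genes 4.61% were called higher and 5.23% lower. None of the list was lower in DESeq2 or at an unadjusted p under 0.05, where 13.9% of all genes were lower. With the replicate block 5 of the list were called higher, when 6.95% of all genes were. DESeq2 called 4 of the list higher, when 573 of all 11277 genes were. The genes SLC2A3, PFKL, PFKFB1, ALDOA, PGK1, PGAM1, ENO1, ENO2, PKM, LDHA and PDK1 were not analysed here, so most of the classical glycolytic targets are outside this count.

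ALDOC, an aldolase, was 65.0 CPM in T1 and 64.5 CPM in T2, against 8.60 CPM in C1 and 12.7 CPM in C2, a log2 fold change of 2.64 (SE 0.24, edgeR adjusted p = 0.00422). HK1, a hexokinase, which traps glucose in the cell, was 197 CPM in T1 and 241 CPM in T2, against 73.3 CPM in C1 and 85.1 CPM in C2, a log2 fold change of 1.47 (SE 0.16, edgeR adjusted p = 0.00596). Of the relatives of PFKFB4, PFKFB2 passed on p but lay just under the fold threshold (log2 fold change 0.97, SE 0.12, edgeR adjusted p = 0.00842), and PFKFB3 stood at 0.11 (SE 0.34, adjusted p = 0.860). PGM1, a phosphoglucomutase that links glucose to glycogen, also passed on p alone, at 0.55 (SE 0.12, edgeR adjusted p = 0.0405).

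**Figure D2:**
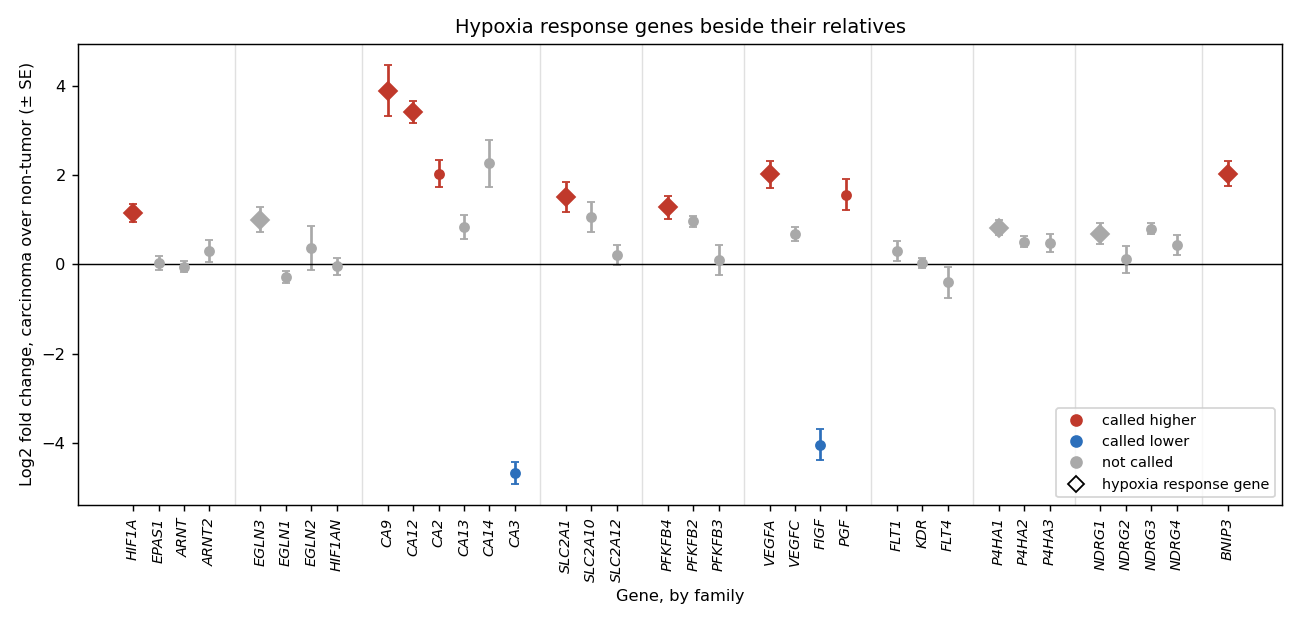
Log2 fold change of carcinoma over non-tumor tissue (± SE) of the hypoxia response genes (diamonds) and of measured relatives or partners (circles), grouped by family, with called genes in red (higher) or blue (lower) and the others in grey. HIF1A lies at 1.16 beside EPAS1 at 0.04, and VEGFA at 2.03 beside FIGF at −4.04.

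VEGFA, the growth factor through which oxygen-poor tissue calls for blood vessels, was higher in carcinoma. Its mean was 63.3 ± 20.3 CPM in carcinoma and 15.6 ± 3.49 CPM in non-tumor tissue (SD, n = 2 pools each). It was 48.9 CPM in T1 and 77.6 CPM in T2, against 13.1 CPM in C1 and 18.1 CPM in C2. The lower carcinoma library stood well above the higher non-tumor one. The log2 fold change was 2.03 (SE 0.31, edgeR adjusted p = 0.0153), and the call was lost without C1 (log2 fold change 1.73, adjusted p = 0.0512).

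The receptors and the other ligands went in both directions. Of 16 listed genes 12 were measured, of which 1 was higher (PGF), 1 was lower (FIGF) and 10 did not pass, with a median log2 fold change of −0.18. Over all genes 4.61% were called higher and 5.23% lower, so calls this few do not set the list apart. PGF, a relative of VEGFA that binds the receptor FLT1, was 14.1 CPM in T1 and 24.1 CPM in T2, against 6.10 CPM in C1 and 6.49 CPM in C2, a log2 fold change of 1.56 (SE 0.35, edgeR adjusted p = 0.0471). Its call was lost without T2 (adjusted p = 0.169), C1 (0.207) or C2 (0.0908).

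FIGF, the gene of the ligand VEGF-D, which acts on lymphatic vessels, was 2.46 CPM in T1 and 1.19 CPM in T2, against 40.0 CPM in C1 and 32.7 CPM in C2, a log2 fold change of −4.04 (SE 0.35, edgeR adjusted p = 0.00374). VEGFC, the other lymphatic ligand gene, had a log2 fold change of 0.69 (SE 0.15, edgeR adjusted p = 0.0460), under the fold threshold. TEK, the angiopoietin receptor gene of endothelium, had one of −0.71 (SE 0.16, adjusted p = 0.0460). The VEGFA receptor genes KDR, at 0.03 (SE 0.11, edgeR adjusted p = 0.865), and FLT1, at 0.30 (SE 0.22, adjusted p = 0.433), were looked at after their values were seen. With the replicate block 2 genes of the list were called higher and 2 lower, but that fit also called 6.95% of all genes higher and 763 lower.

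Blood endothelial markers were lower in the same comparison. Of 8 listed markers 5 were measured (PECAM1, CDH5, VWF, ERG and EMCN), and all 5 were called lower in carcinoma, with a median log2 fold change of −1.36. Their summed level was 217 and 224 CPM in carcinoma, against 595 and 613 CPM in non-tumor tissue, and none was at 0. Their part in the vascular results was not tested.

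BNIP3, a protein of the outer mitochondrial membrane that marks mitochondria for removal by autophagy, was higher in carcinoma. Its mean was 30.6 ± 7.99 CPM in carcinoma and 7.38 ± 0.712 CPM in non-tumor tissue (SD, n = 2 pools each). It was 25.0 CPM in T1 and 36.3 CPM in T2, against 6.87 CPM in C1 and 7.88 CPM in C2. The 2 non-tumor libraries lay close together and both carcinoma libraries far above them. The log2 fold change was 2.04 (SE 0.28, edgeR adjusted p = 0.0117), and without C1 the call was lost (1.87, adjusted p = 0.0601). Its closest relative, BNIP3L, was not analysed here.

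NDRG1, a cytoplasmic protein induced by hypoxia and other stress, did not pass. It was 200.2 CPM in T1 and 277 CPM in T2, against 124 CPM in C1 and 172 CPM in C2. The tissues do not overlap, but T1 stood close to C2, and the log2 fold change was 0.69 (SE 0.24, edgeR adjusted p = 0.134). Among its relatives NDRG3 passed on p but not on fold (0.80, SE 0.12, edgeR adjusted p = 0.0142), while NDRG2 stood at 0.11 (SE 0.31, adjusted p = 0.839) and NDRG4 at 0.43 (SE 0.23, adjusted p = 0.285).

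Of 27 listed genes of mitophagy and stress, 23 were measured, of which 2 were higher, among them STC2, 1 was lower and 20 did not pass, with a median log2 fold change of 0.43. Over all genes 4.61% were called higher and 5.23% lower, so calls this few do not set the list apart. STC2, which encodes a secreted stanniocalcin, was 91.6 CPM in T1 and 92.2 CPM in T2, against 24.2 CPM in C1 and 24.1 CPM in C2, a log2 fold change of 1.92 (SE 0.12, edgeR adjusted p = 0.00209). The pools agreed closely within each tissue. TFRC, the transferrin receptor gene, passed on p alone (0.78, SE 0.10, edgeR adjusted p = 0.0106). The gene that was lower, named after its value was seen, was TMEM45A, with a log2 fold change of −1.23 (SE 0.18, edgeR adjusted p = 0.0143), a call lost without C1 (adjusted p = 0.0613). With the replicate block, which called 6.95% of all genes higher, 3 genes of the list were called higher. The added one was DDIT4, an inhibitor of mTOR signalling. Its log2 fold change did not pass without the block (1.25, SE 0.66, edgeR adjusted p = 0.290). With the block it was 1.23 (edgeR adjusted p = 6.01e-14), but that fit leaves 1 residual degree of freedom. The small p thus rests largely on spread shared across genes, not on that of DDIT4 between pools.

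P4HA1, the catalytic subunit of the prolyl hydroxylase that stabilizes the collagen helix, passed on p but not on fold. It was 153 CPM in T1 and 133 CPM in T2, against 90.4 CPM in C1 and 70.2 CPM in C2, a log2 fold change of 0.83 (SE 0.16, edgeR adjusted p = 0.0342). Both carcinoma libraries lay above both non-tumor libraries, and, as with HIF1A, pool 2 was the lower within each tissue. Its relatives P4HA2 (0.51, SE 0.12, edgeR adjusted p = 0.0508) and P4HA3 (0.48, SE 0.20, adjusted p = 0.199) had smaller values and did not pass.

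Of 6 listed genes of collagen hydroxylation 5 were measured, and 1 was called higher (PLOD2), 0 lower (0 also at an unadjusted p under 0.05 and by DESeq2), with a median log2 fold change of 0.51. Over all genes 4.61% were called higher and 5.23% lower, and 13.9% were lower at the unadjusted p. PLOD2, a lysyl hydroxylase, was 249.9 CPM in T1 and 213 CPM in T2, against 102 CPM in C1 and 95.5 CPM in C2, a log2 fold change of 1.22 (SE 0.13, edgeR adjusted p = 0.00615). PLOD1, its relative, was 118 CPM in T1 and 297 CPM in T2, against 35.3 CPM in C1 and 80.9 CPM in C2. Pool 2 was the higher in both tissues, and without the block its log2 fold change of 1.85 did not pass (SE 0.59, edgeR adjusted p = 0.113). Carcinoma over non-tumor, PLOD1 was 3.35 in pool 1 and 3.67 in pool 2. With the replicate block, which called 6.95% of all genes higher, 2 genes of the list were called higher. The added one was PLOD1 (log2 fold change 1.79). Fibroblast markers were lower in the same comparison, with 3 of 5 measured markers called and a summed level of 1769 and 2250 CPM in carcinoma, against 5598 and 6041 CPM in non-tumor tissue. Their part in these results was not tested.

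**Figure D3:**
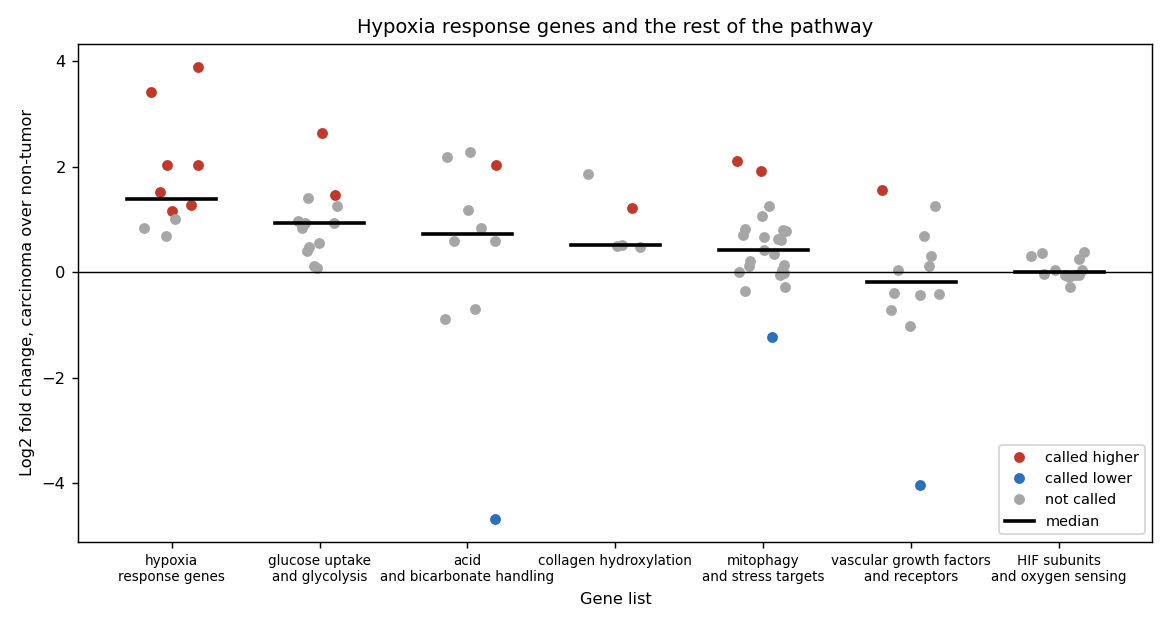
Log2 fold change of carcinoma over non-tumor tissue for each measured gene of the hypoxia response genes and of 6 lists of related genes, with 1 point per gene, called genes in red (higher) or blue (lower), others in grey and the median as a black bar. The median is 1.39 for the hypoxia response genes, 0.93 for glucose uptake and glycolysis and 0.00 for HIF subunits and oxygen sensing.

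Carcinoma over non-tumor ratios were then taken within each pool, where both tissues came from the same dogs. No test can be made from 1 library a side, and the 95% intervals (Clopper-Pearson, for the ratio of the 2 counts) cover counting error only. In all 10 genes both ratios and both lower bounds lay above 1. In 9 of the 10 the intervals of the pools overlapped. The shares of all genes with these traits were not taken, so the 2 counts only describe the members. The exception was HIF1A, at 2.10 in pool 1 (2.04 to 2.15) and 2.42 in pool 2 (2.22 to 2.63). The closest agreement was that of NDRG1, at 1.62 in pool 1 (1.56 to 1.69) and 1.61 in pool 2 (1.46 to 1.77). NDRG1 did not pass across all 4 libraries, yet its ratio differed little between the sets of dogs.

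For CA12 the ratio was 12.3 in pool 1 (10.8 to 14.1) and 8.93 in pool 2 (6.66 to 12.2). CA9 stood at 11.5 in pool 1 (8.50 to 15.8) and at 86.0 in pool 2, where the interval of 14.9 to 3445 reflects the single count in C2. The sizes of the CA9 and CA12 ratios are thus close in the deeply sequenced pool, and that of CA9 in pool 2 is known only by its lower bound.

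VEGFA had ratios of 3.72 (3.33 to 4.17) and 4.29 (3.32 to 5.60) in pools 1 and 2, and BNIP3 of 3.63 (3.12 to 4.25) and 4.60 (3.13 to 6.95). SLC2A1 had 3.15 (2.86 to 3.46) and 2.61 (2.12 to 3.23), and PFKFB4 2.47 (2.11 to 2.89) and 2.40 (1.61 to 3.64). For EGLN3 these were 1.90 (1.67 to 2.17) and 2.10 (1.53 to 2.92), and for P4HA1 1.69 (1.62 to 1.78) and 1.90 (1.64 to 2.20). The order of the genes was nearly the same in both pools, with the 2 carbonic anhydrases first and P4HA1 and NDRG1 last.

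**Figure D4:**
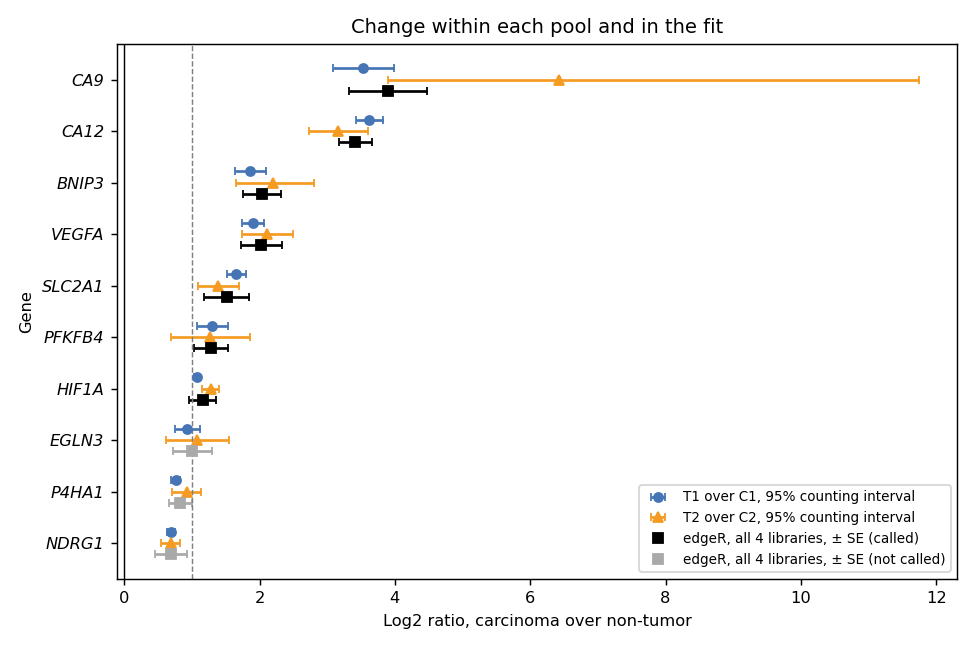
Log2 ratio of carcinoma over non-tumor tissue for each gene in pool 1 (blue circles) and pool 2 (orange triangles), with 95% counting intervals, and the edgeR log2 fold change over all 4 libraries ± SE (black squares where called, grey where not). The dashed line marks a log2 ratio of 1, and every point lies to the right of 0.

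Ratios between genes within a library do not depend on the scaling of the totals. For 23 pairs of a member and a relative or partner, chosen after the values were seen, the ratio of counts was above both non-tumor libraries in both carcinoma libraries for 19 pairs, below for 2 and overlapping for 2. With 2 libraries against 2 an exact permutation test cannot give a two-sided p below 0.333, so these are descriptions. Every member by itself already lay above in both carcinoma libraries, and the share among other gene pairs was not taken. The counts of pairs thus add no separate evidence. Only their change is meaningful, since counts are not scaled by gene length.

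HIF1A over EPAS1 was 10.9 in T1 and 7.97 in T2, against 5.49 in C1 and 3.30 in C2, a 2.19-fold change. EGLN3 over EGLN1 changed 2.45-fold. PFKFB4 over PFKFB3 was 1.04 in T1 and 0.811 in T2, against 0.464 in C1 and 0.361 in C2, which is 2.24-fold in pool 1 and 2.25-fold in pool 2. The member thus gained on each relative named here, but less on another relative of EGLN3 and of PFKFB4. EGLN3 over EGLN2 changed 1.28-fold in pool 1 and 1.75-fold in pool 2. PFKFB4 over PFKFB2 changed 1.24-fold. The size of the gain thus depended on the relative chosen.

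VEGFA over its receptor KDR was 0.600 in T1 and 1.03 in T2, against 0.170 in C1 and 0.237 in C2, a 3.92-fold change. VEGFA over the endothelial gene PECAM1 was 0.812 in T1 and 1.49 in T2, against 0.0652 in C1 and 0.107 in C2, a 13.2-fold change. The 2 pairs that overlapped were CA9 over CA12, at 0.186 and 0.185 in carcinoma, against 0.200 in C1 and 0.0192 in C2, and NDRG1 over NDRG3, at 2.33 and 3.47 in carcinoma, against 2.57 and 3.66 in non-tumor tissue. The 2 pairs that were lower in carcinoma were P4HA1 over PLOD2 (0.769-fold) and PFKFB4 over HK1 (0.883-fold).

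Markers of the other cell types in the tissue give the setting of these values. Of the luminal epithelial markers 4 of 8 were measured (KRT19, EPCAM, CDH1 and ELF3), none at 0, with a summed level of 1025 and 1097 CPM in carcinoma, against 1096 and 981 CPM in non-tumor tissue. EdgeR called 0 of them, DESeq2 called 0, and 0 had an unadjusted p under 0.05. Cartilage markers were called higher in carcinoma for 4 of 7 measured, with a summed level of 1114 and 1422 CPM, against 106 and 113 CPM in non-tumor tissue. ACAN alone made up 580 CPM in T1 and 845 CPM in T2. COL9A1 went the other way without passing (log2 fold change −0.71, SE 0.20, edgeR adjusted p = 0.0858). SOX9 (0.53, edgeR adjusted p = 0.0475) and MATN3 (0.38, edgeR adjusted p = 0.424) were not called. Neutrophil and macrophage markers had a summed level of 303 and 305 CPM in carcinoma, against 231 and 249 CPM in non-tumor tissue, but did not share a direction. Of the 7 measured, S100A8 and S100A9 were called higher, and CXCL8 lay above in both carcinoma libraries without passing (log2 fold change 1.25, SE 0.29, edgeR adjusted p = 0.0538). The macrophage marker CD163 had a negative value that passed on p but not on fold (−0.65, SE 0.14, edgeR adjusted p = 0.0441). AIF1 (−0.76, adjusted p = 0.228), CSF1R (−0.13, adjusted p = 0.831) and MSR1 (0.05, adjusted p = 0.906) did not pass in edgeR. All 4 milk protein genes were lower, at a summed 20.3 and 8.33 CPM in carcinoma, against 1789 and 1043 CPM. Of 8 proliferation genes 7 were measured, and edgeR and DESeq2 called 0 of them, with 0 higher and 2 lower at an unadjusted p under 0.05. The part of these cell types in the results for the hypoxia response genes was not tested.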

How the data were processed

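The paper names TopHat2 for mapping and HTSeq for counting, whereas the submitters' processing notes list FastQC, STAR, featureCounts and DESeq2 without versions. Which genome build and strand setting went with these tools was not given in the sources used here. In the reference gene table (UU_Cfam_GSD_1.0) HIF1A and SLC2A1 overlap a lncRNA gene and P4HA1 a pseudogene. None of these overlapping genes is among the genes counted. How reads in such overlaps were treated, and whether the annotation used for counting held them, is not known here. The deposited values are unnormalized gene counts, and the gene length given beside them was not used. The analysis ran in R 4.3.3 with edgeR 4.0.16 (all genes passed filterByExpr, TMM scaling, quasi-likelihood test, prior count of 2 in fitted fold changes) and DESeq2 1.42.0. Other alternatives were RLE size factors, plain totals, other filters, another prior count and leaving out each library. Scripts were tested on simulated data. Figures were drawn with matplotlib 3.10.9. Intervals have a 95% level and cover counting error only.

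The pairing by pool is taken from the paper (same dogs). In the pairing check, carcinoma and non-tumor deviations from the tissue means had a correlation of 0.782 over genes, which are no replicates. SE is the absolute log2 fold change over the square root of F. The block on pool number was an alternative, since the study's methods name none. It left 1 residual degree of freedom, against 2 without it, and a common dispersion of 0.00216, against 0.0508. Its p-values therefore rest largely on spread shared across genes and are no measure of evidence from 2 pools. Replicates differed by more than counting error (chi-square per degree of freedom 31.7 between carcinoma and 46.1 between non-tumor libraries). The members and lists were chosen with earlier results of these data known. Named were all members, up to 4 genes of each related list with the smallest adjusted p, and relatives of members, while others are marked as named after their values were seen. Of 103 listed related genes 75 were measured, 4 of them under older symbols (TCEB1, TCEB2, ERO1L and FIGF), matched once the tables had been seen. A gene that the rule for named genes picks is not reported here.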

Additional observations from a re-analysis of the deposited data

How the results depend on the processing

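Over the 109 values of the 10 members under the alternatives, all were positive, 12 calls were lost and 0 were gained. CA9 and CA12 were called in every alternative run for them, 5 members in some and 3 in none. CA9 could not be fitted at 10 counts in every library. The number of members called ranged from 3 to 6 with 1 library left out, where the lone library was assumed to vary like the other tissue, and that of all genes from 342 (without C1, as for the 3 members) to 509 higher and 421 to 547 lower, against 520 and 590 with all 4. The replicate block gave 784 higher and 763 lower among all genes and changed the call of no member. In the related lists it gave 5 higher for glycolysis, 4 higher for acid handling, 2 higher and 2 lower for vascular genes, 2 higher for collagen hydroxylation and 3 higher for mitophagy and stress. DESeq2 gave 573 higher and 633 lower among all genes, with 4 higher for glycolysis and 3 for acid handling. RLE size factors gave 514 higher and 601 lower among all genes, with 2 higher for acid handling. Plain library totals gave 476 higher and 524 lower among all genes, with 0 vascular genes higher. At 10 counts in every library 425 of 10804 genes were higher and 425 lower. In that run 0 vascular genes were higher and 0 lower, and 0 acid handling genes lower, CA3 and FIGF being below that minimum. An adjusted p under 0.05 with any fold change, chosen after seeing the data, gave 782 genes higher, 4 for glycolysis, 3 lower for acid handling, 2 higher and 2 lower for vascular genes and 5 higher for mitophagy and stress. With 1 library left out the counts higher ranged from 2 to 6 for glycolysis, 0 to 3 for acid handling, 0 to 1 for vascular genes, 1 to 2 for collagen hydroxylation and 2 to 3 for mitophagy and stress, and those lower from 1 to 2 for acid handling and 0 to 1 for mitophagy and stress. Where not stated, the cause was not tested. The planned search of promoters for hypoxia response elements was not run. The shallower pool 2 limits the precision of CA9 most.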

Other observations

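The hypoxia response genes also differed between the pools of dogs. In both tissues 7 of the 10 were higher in pool 2 than in pool 1 and 2 (HIF1A and P4HA1) were lower, while CA9, with 1 count in C2, went in opposite directions. Among the 10804 genes that reached 10 counts in all 4 libraries, 38.6% were higher and 41.3% lower in pool 2 in both tissues. For VEGFA the log2 offset of pool 2 over pool 1 was 0.67 in carcinoma and 0.46 in non-tumor tissue, and for NDRG1 it was 0.47 and 0.48, not far below the 0.69 between the tissues. For HIF1A it was −0.27 in carcinoma and −0.48 in non-tumor tissue. The dogs of pool 1 were older on average by the study's account. Dogs, their age, depth and library preparation cannot be told apart between pools.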
